A study of Arabidopsis thaliana with 23 samples.

Results

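In roots of Arabidopsis seedlings moved to the steroid dexamethasone (Dex), 38 of the 22810 probe sets on the Affymetrix ATH1 array were high after 1 h and no longer high after 12 h, in a line carrying inducible SHORTROOT (SHR) as well as in a line carrying inducible SCARECROW (SCR). These 38 transcripts were chosen by 4 conditions on the array signals. On the log2(signal + 10) scale, their mean at 1 h was at least 1 above that at 0 h in both lines, and their mean at 12 h was less than 0.7 above that at 0 h in both lines. The mean signal of the 1 h arrays was at least 100, and controls, plastid genome loci and UDP-glycosyltransferase (UGT) symbols were left out. The annotation used here gave 1 gene for 16 of the 38, several genes for 2 and none for 20, which are named by their probe set.

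SHR and SCR are transcription factors of the GRAS family that pattern the ground tissue of the root, the layers that become cortex and endodermis, and that act in the division of the cortex/endodermis initial (CEI). Dex is used to switch on proteins fused to a steroid receptor domain. In plants, many transcripts respond within an hour to a change of medium, to touch or to wounding and then return toward their starting level, and such early transcripts often encode secreted proteins, cell wall enzymes, receptor kinases and regulators linked to defence.

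The 20 time-course arrays came from the SHR-inducible line and the SCR-inducible line, ecotype Columbia, grown for 5 days on standard medium and moved to medium with 1 micromolar Dex for 0, 1, 3, 6 or 12 h, with 2 biological replicates at each time in each line. A further 3 arrays held CEI cells of a CYCD6 marker GFP line of the same ecotype and age, kept on standard medium. The cells of the time course were, per the source names, sorted through J0571, an enhancer trap active in the ground tissue. The protocol text of every sample instead describes cut roots taken into RNA buffer. It is thus not settled that the time-course RNA is from sorted cells. Nor is it settled for the CEI samples, which are called CEI cells here by their labels. Roots of many seedlings were pooled for each replicate, and the labels name neither the inducible construct nor its promoter. No samples from a transfer to medium without Dex were analysed here, so the effects of Dex and of the transfer cannot be told apart. Fewer cells of a type and less RNA per cell cannot be told apart in such pooled material either.

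Signals were scaled alike on every array, and the median signal of an array was between 62.9 and 79.9. Replicate arrays correlated at 0.944 to 0.971 over all probe sets in 10 of the 11 groups and at 0.917 between the SCR-line arrays at 6 h, which stood apart from each other the most. The probe sets of SHR and SCR themselves are not named by the annotation, so the induced genes were not used to check the labels. Of 18 ground tissue markers 6 were named, and their summed signal was 1131 to 1497 in CEI cells and 823 to 3402 on the time-course arrays. Of 10 epidermis markers only EXP7 and EXP18, expansins of root hair cells, were named. None of the 12 stele or 4 root cap markers was. The summed EXP7 and EXP18 signal varied widely: it was 35.1 and 420.4 at 0 h, 428 and 312 at 1 h, 274 and 143 at 3 h, 88.2 and 219.7 at 6 h, and 22.9 and 236 at 12 h in the SHR line. Arrays of the SCR line summed to 149.8 and 262 at 0 h, 131 and 145 at 1 h, 153 and 39.4 at 3 h, 195 and 51.2 at 6 h, and 46.6 and 161 at 12 h. EXP7 and EXP18 were thus higher at 1 h than at 0 h in the mean of the SHR line but not in the SCR line, and their part in the results below was not tested.

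The values that chose the 38 transcripts are given as a description, without a test. Of all 22746 probe sets that are not controls, 6.06% were at least 1 higher at 1 h than at 0 h in the SHR line, against 2.62% in the SCR line. With the condition on signal, 160 probe sets were at least 1 higher in both lines. Of these, 122 were still 0.7 or more above 0 h at 12 h in either line, 16 in the SHR line, against 120 in the SCR line. Most of the early transcripts set aside were thus set aside by their 12 h level in the SCR line, as the plot of 12 h differences shows.

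**Figure D1:**
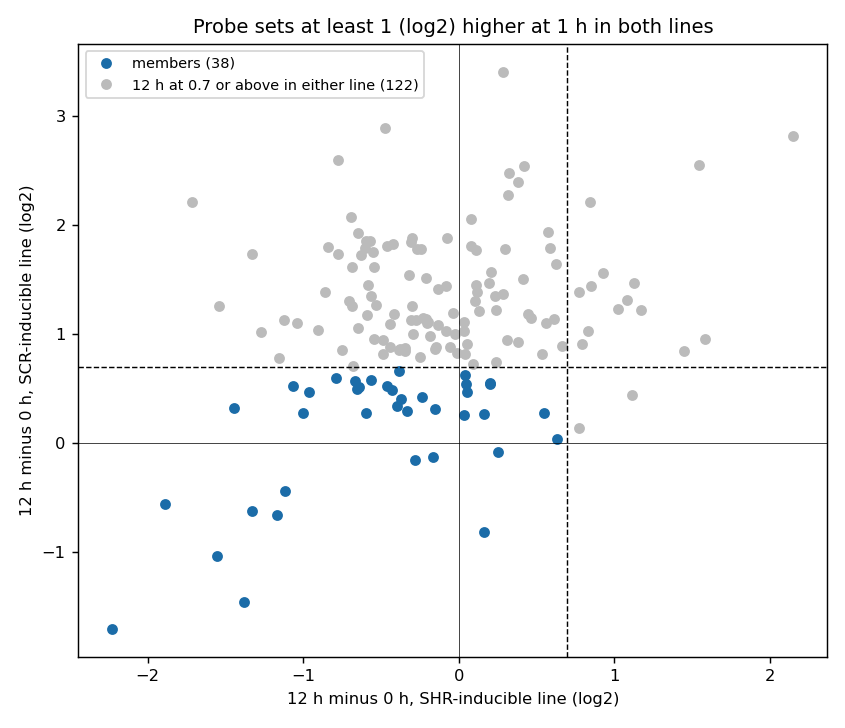
The 160 probe sets that were at least 1 higher (log2) at 1 h than at 0 h in both lines, placed by their difference between 12 h and 0 h in the SHR line (x axis) and the SCR line (y axis), both on the log2(signal + 10) scale. The dashed lines mark 0.7; the 38 transcripts (blue) lie below and left of them, and most of the other 122 (grey) lie above the horizontal line.

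At the thresholds, the difference of 1 at 1 h had 246238_at (1.01 in the SHR line), AT4G20000 (1.02 in the SHR line) and 262649_at (1.02 in the SCR line) just inside. Just outside were 257185_at (0.99 in the SCR line), 251745_at and 257484_at (both 0.98 in the SHR line). At 12 h, AT5G18470 (0.66 in the SCR line), 253879_s_at (0.63 in the SHR line) and 260303_at (0.62 in the SCR line) were just inside. WRKY53, a transcription factor of stress and senescence, was just outside (0.71 in the SCR line), followed by DLAH (0.72) and SAL2 (0.74) in the same line.

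After 1 h the median of the 38 was lower at each later time in the SHR line, while in the SCR line it was higher at 6 h than at 3 h. In the SHR line their median difference from 0 h was 1.42 after 1 h, 0.73 after 3 h, 0.20 after 6 h and -0.41 after 12 h (log2). In the SCR line it was 1.39 after 1 h, 0.41 after 3 h, 0.66 after 6 h and 0.32 after 12 h. The medians of all probe sets lay between -0.08 and 0.01 in these 8 differences. At 1 h the mean was the highest of the 5 times for 37 transcripts in the SHR line, for 37 in the SCR line and for 36 in both. The exceptions were 261459_at, highest at 3 h in the SHR line, and AT1G51850, highest at 6 h in the SCR line. Of these, 261459_at was singled out after its values were seen. The conditions of the choice set 1 h above 0 h and 12 h in both lines, and the matching share of all probe sets was not counted. Nothing is read from these counts of peaks. A difference of at least 1 was still present at 3 h for 9 transcripts in the SHR line, against 3 in the SCR line, where 1.66% and 1.24% of all probe sets passed it. At 6 h it was present for 3 in the SHR line, against 6 in the SCR line, where 1.57% and 1.62% of all probe sets passed it. These differences share the 0 h arrays with the choice of the transcripts, so nothing is read from the counts.

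The 1 h level varied strongly between the replicate arrays. Every 1 h array was above every 0 h array for 30 of the 38 in the SHR line (18.3% of all probe sets), for 30 in the SCR line (15.4%) and for 24 in both lines (5.17%), a contrast the choice of transcripts used. The gap between the replicate arrays at 1 h was larger than the difference between the means at 1 h and 0 h for 7 transcripts in the SHR line, against 16 in the SCR line. When each 1 h array was required to be at least 1 above each 0 h array of its line, 1 transcript was left, AT2G44370. Without the second SCR-line array at 1 h, 47 probe sets met the conditions, of which 16 were among the 38; without the second SCR-line array at 0 h, 30 met them, of which 19 were.

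AT2G41810, of a family of secreted proteins bound to the cell wall, had the highest smaller-of-both-lines difference. In the SHR line its signal was 7.35 and 144 at 0 h, 206 and 1529.7 at 1 h, 80.4 and 345 at 3 h, 12.5 and 151 at 6 h, and 5.10 and 18.0 at 12 h. SCR-line arrays gave 158 and 3.90 at 0 h, 870.0 and 179 at 1 h, 266 and 84.8 at 3 h, 769 and 38.4 at 6 h, and 45.4 and 7.84 at 12 h. In both lines the 1 h arrays lay above both 0 h arrays, and in each group the replicates differed several times over. The mean difference between 1 h and 0 h was 3.48 in the SHR line, against 3.08 in the SCR line (log2).

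AT2G43890, a pectin lyase-like protein of the family that holds polygalacturonases, which cut pectin, followed the same course. Its signal in the SHR line was 21.1 and 106 at 0 h, 106 and 1943 at 1 h, 51.8 and 172 at 3 h, 4.33 and 67.0 at 6 h, and 4.16 and 27.5 at 12 h. The SCR-line values were 167 and 33.1 at 0 h, 632 and 252 at 1 h, 259 and 53.8 at 3 h, 548 and 39.5 at 6 h, and 21.1 and 22.8 at 12 h. One SHR-line array at 1 h carried most of the group's mean, and the other was barely above the higher 0 h array. By 12 h both lines were below 0 h, with mean differences of -1.38 in the SHR line, against -1.45 in the SCR line (log2).

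AT4G16260, a glycosyl hydrolase of the family of plant beta-glucanases, moved less. Its signal at 0, 1, 3, 6 and 12 h in the SHR line was 513 and 98.4, 668 and 395, 709 and 185, 448 and 135, and 94.0 and 278. In the SCR line the same times gave 131 and 186, 298 and 433, 287 and 329, 315 and 292, and 189.8 and 275. The 1 h and 0 h arrays overlapped in the SHR line and did not in the SCR line. Its 1 h difference was 1.14 in the SHR line, against 1.15 in the SCR line (log2).

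**Figure D2:**
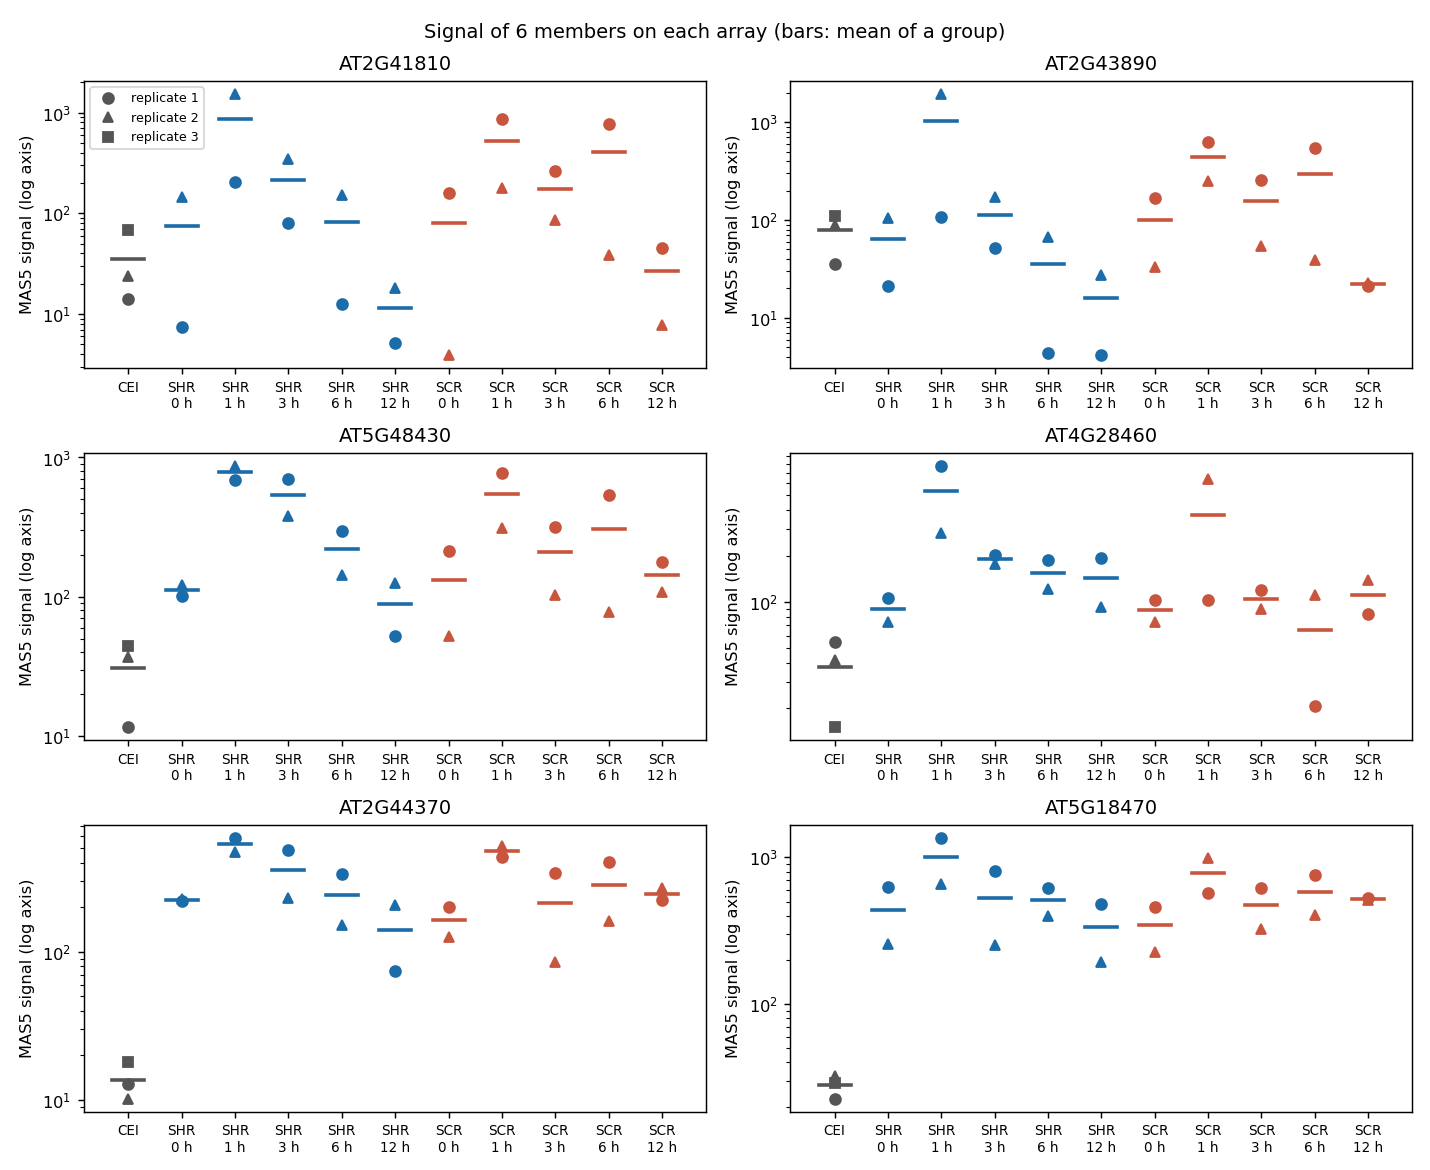
Signal on a log axis for 6 of the 38 transcripts on every array, with CEI cells at the left, then the SHR line and the SCR line by time; symbols mark replicates and bars the group means. At 1 h in the SHR line the replicates of AT2G41810 lie far apart (206 and 1529.7) and those of AT2G44370 close together (588 and 470.4).

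Among secreted signals and their receptors, AT4G28460 encodes the precursor of a small secreted peptide linked to immune signalling. In the SHR line it had signals of 106 and 73.4 at 0 h, 778 and 282 at 1 h, 204 and 177 at 3 h, 189 and 122 at 6 h, and 193 and 92.1 at 12 h. SCR-line arrays read 104 and 73.8 at 0 h, 103 and 641 at 1 h, 119.9 and 89.5 at 3 h, 20.9 and 111 at 6 h, and 83.1 and 139.9 at 12 h. The SCR-line peak was present on one array only: the other 1 h array lay at the level of 0 h. The mean difference at 1 h was 2.29 in the SHR line, against 1.48 in the SCR line (log2).

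AT1G51850, a leucine-rich repeat receptor kinase, had signals in the SHR line of 54.9 and 322 at 0 h, 308 and 519 at 1 h, 438 and 306 at 3 h, 204 and 120.4 at 6 h, and 22.6 and 79.0 at 12 h. Its SCR-line signals were 169 and 36.9 at 0 h, 278 and 171 at 1 h, 227 and 134 at 3 h, 529 and 110.1 at 6 h, and 93.5 and 116 at 12 h. Its 1 h and 0 h arrays overlapped in the SHR line, and its differences at 1 h were 1.48 in the SHR line, against 1.32 in the SCR line. AT5G18470, a lectin of the mannose-binding type, had SHR-line signals of 625 and 255 at 0 h, 1363 and 657 at 1 h, 806 and 254 at 3 h, 618 and 399.9 at 6 h, and 479 and 193 at 12 h. Its signals with SCR induced were 460.1 and 228 at 0 h, 573 and 996 at 1 h, 621 and 326 at 3 h, 757 and 405 at 6 h, and 526 and 512 at 12 h. The 1 h arrays lay above the 0 h arrays in both lines, by 1.22 in the SHR line, against 1.20 in the SCR line on average, and the SCR line stayed 0.66 above 0 h at 12 h.

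AT5G48430, an aspartyl protease family member, had SHR-line signals of 102 and 122 at 0 h, 691 and 870.3 at 1 h, 700.4 and 381 at 3 h, 297 and 145 at 6 h, and 52.6 and 126 at 12 h. In the SCR line it had 214 and 52.1 at 0 h, 779.6 and 312 at 1 h, 317 and 103 at 3 h, 537 and 78.0 at 6 h, and 177 and 109 at 12 h. In the SHR line its differences from 0 h were 2.69 at 1 h and 2.12 at 3 h; the 1 h difference was 2.1 (log2) in the SCR line. AT5G28630, a glycine-rich protein, had SHR-line signals of 310.0 and 103 at 0 h, 1489 and 495 at 1 h, 642 and 144 at 3 h, 310.2 and 107 at 6 h, and 113 and 109 at 12 h. Its SCR-line signals were 136 and 83.0 at 0 h, 224 and 291 at 1 h, 205 and 95.5 at 3 h, 224 and 107 at 6 h, and 134 and 177 at 12 h. Its differences at 1 h were 2.19 in the SHR line, against 1.19 in the SCR line, with no overlap of arrays in either.

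Among the other named genes, AT2G44370, of a family of cysteine/histidine-rich proteins, was the gene left when every 1 h array had to pass. Its SHR-line signals were 220.0 and 227 at 0 h, 588 and 470.4 at 1 h, 485 and 229 at 3 h, 335 and 151 at 6 h, and 74.6 and 206 at 12 h. Its SCR-line signals were 199.7 and 127 at 0 h, 435 and 519 at 1 h, 342 and 85.5 at 3 h, 402 and 162 at 6 h, and 224 and 269 at 12 h. It stood at 1.20 above 0 h at 1 h in the SHR line, against 1.52 in the SCR line (log2). ZCF37, a protein of unknown function, had SHR-line signals of 956 and 1092 at 0 h, 3393 and 2571 at 1 h, 1319.7 and 589 at 3 h, 1286 and 514 at 6 h, and 554 and 423 at 12 h. It had SCR-line signals of 465 and 352 at 0 h, 664 and 1304 at 1 h, 1015 and 404 at 3 h, 826 and 586 at 6 h, and 512 and 666 at 12 h. Both lines were highest in the mean at 1 h, and the 1 h difference was 1.52 in the SHR line, against 1.18 in the SCR line.

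APS3, an ATP sulfurylase that starts sulfate assimilation, had SHR-line signals of 382 and 250.2 at 0 h, 857 and 536 at 1 h, 839 and 358 at 3 h, 577 and 463 at 6 h, and 490.3 and 259 at 12 h. Its SCR-line signals were 374 and 512 at 0 h, 743 and 3394 at 1 h, 859 and 544 at 3 h, 769.6 and 596 at 6 h, and 615 and 674 at 12 h. The second SCR-line array at 1 h was far above every other array, and the difference at 1 h was 1.11 in the SHR line, against 1.84 in the SCR line (log2). AT1G64610, a WD-repeat protein, had signals of 73.4 and 20.7 at 0 h and 152 and 102 at 1 h in the SHR line, and 58.8 and 62.1 at 0 h and 80.2 and 317 at 1 h in the SCR line. Here too the second SCR-line array at 1 h was the highest, and the differences were 1.41 in the SHR line, against 1.29 in the SCR line.

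AT1G49030, of a family of small cysteine-rich proteins, had signals of 33.5 and 38.8 at 0 h and 49.9 and 159 at 1 h in the SHR line, and 48.9 and 18.9 at 0 h and 155 and 71.5 at 1 h in the SCR line. AT3G23190, related to lesion-inducing proteins, had 45.9 and 296 at 0 h and 149 and 452 at 1 h in the SHR line, and 149 and 119 at 0 h and 649.6 and 222 at 1 h in the SCR line. Only AT3G23190 had overlapping arrays, and these were of the SHR line. For both genes the SCR-line arrays at 1 h had the first replicate higher, the reverse of APS3 and AT1G64610.

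AT4G20000, of the VQ-motif family, members of which bind WRKY factors, had 103 and 121 at 0 h and 206 and 271 at 1 h in the SHR line, and 47.6 and 24.1 at 0 h and 65.1 and 158 at 1 h in the SCR line. AT4G38550, whose probe set can bind several transcripts, had 328 and 178 at 0 h and 603 and 468 at 1 h in the SHR line, and 293 and 158 at 0 h and 424 and 670.3 at 1 h in the SCR line. No 1 h array of either gene overlapped with the 0 h arrays of its line. The 1 h differences of AT1G49030, AT3G23190, AT4G20000 and AT4G38550 were 1.02 to 1.13 in the SHR line, against 1.27 to 1.49 in the SCR line (log2).

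The 22 transcripts without a single annotated gene ranged from 1.01 to 2.30 at 1 h in the SHR line and from 1.02 to 3.76 in the SCR line (log2). The highest of these by the smaller difference were 255591_at and 247205_at. For 255591_at, signals were 117 and 834 at 0 h and 985 and 2595 at 1 h in the SHR line, and 481 and 112 at 0 h and 1318 and 596 at 1 h in the SCR line. For 247205_at, signals were 314 and 32.3 at 0 h and 668 and 207 at 1 h in the SHR line, and 163 and 37.4 at 0 h and 146 and 818 at 1 h in the SCR line, so its 1 h and 0 h arrays overlapped in both lines. The highest SCR-line difference belonged to 267565_at, singled out after its values were seen, whose SCR-line arrays at 1 h read 155 and 4744 while its SHR-line arrays at 1 h read only 27.4 and 33.8.

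By the differences between replicate arrays, the 38 transcripts were divided into 2 sets, a number given to the clustering and not found by it. Within the 10 time-course groups, average-linkage clustering placed 14 of them in one set (set A) and 24 in another (set B), a split made after the values were seen and given without a test. Differences correlated at a median of 0.73 between transcripts of the same set and at -0.09 between sets, over 10 groups that share their arrays. The clustering used these same correlations, so this contrast was built into the sets and nothing is read from it. Set A held AT2G41810, AT2G43890, AT5G48430, AT1G51850, AT2G44370, AT1G49030, AT3G23190 and AT4G20000, and set B held AT4G28460, AT1G64610, AT5G18470, AT5G28630, ZCF37, AT4G16260, APS3 and AT4G38550. The annotated wall proteins of the first and second rank, the protease and the receptor kinase were thus in set A, and the peptide precursor, the lectin and the glucanase family member in set B. Each set also held further named genes of other kinds, and the sets were not compared by function.

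The counts by set that follow describe values that the clustering itself used, and the matching shares of all probe sets were not counted. At 1 h, the second SHR-line array was above the first for 12 of the 14 in set A (median difference 1.27) and for 1 of the 24 in set B (median -0.79). The second SCR-line array was above the first for 3 of the 14 in set A (median -1.04) and for 24 of the 24 in set B (median 1.69). Over all probe sets the median of log2(signal + 10) was 6.28 and 6.29 on the SHR-line arrays at 1 h. It was 6.23 and 6.29 on those of the SCR line. The SCR-line peak of set B lay mostly on one array: its median over the set was 7.33 on the first 1 h array and 9.30 on the second, against 6.98 and 6.53 on the 0 h arrays (log2(signal + 10)). In set A, both SCR-line arrays at 1 h, 9.18 and 8.18, lay above both 0 h arrays, 7.61 and 6.37. At 6 h the second SCR-line array was below the first for 14 of 14 in set A, with a median difference of -2.44, and it was above the first for 5 of 24 in set B. The medians over all probe sets were 6.19 and 6.29 on these arrays.

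**Figure D3:**
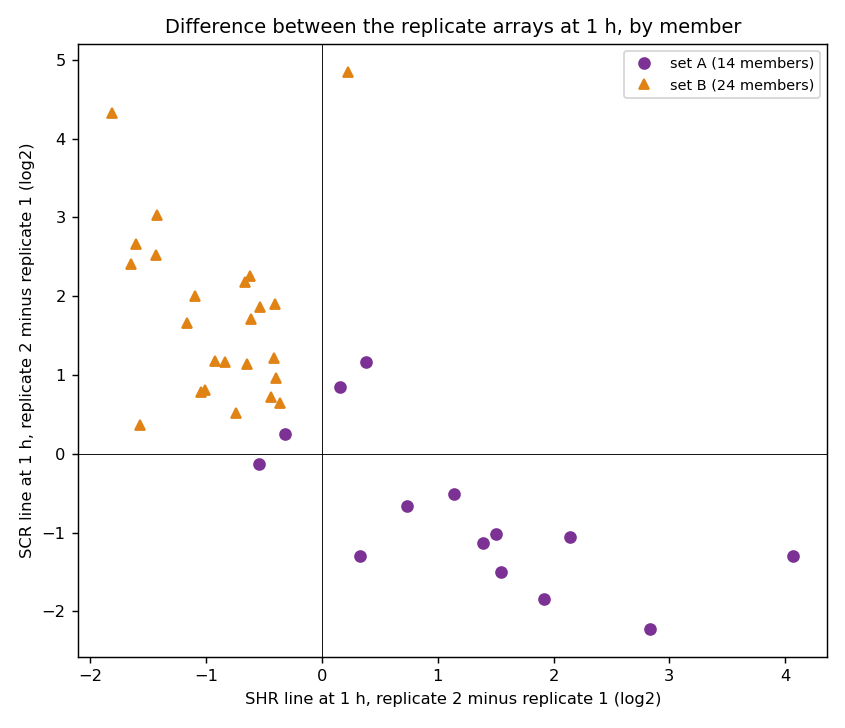
Each of the 38 transcripts by the difference between its replicate arrays at 1 h, replicate 2 minus replicate 1 on the log2(signal + 10) scale, in the SHR line (x axis) and the SCR line (y axis). Set B (triangles) lies above 0 on the y axis for 24 of 24, and most of set A (circles) lies at the lower right.

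**Figure D4:**
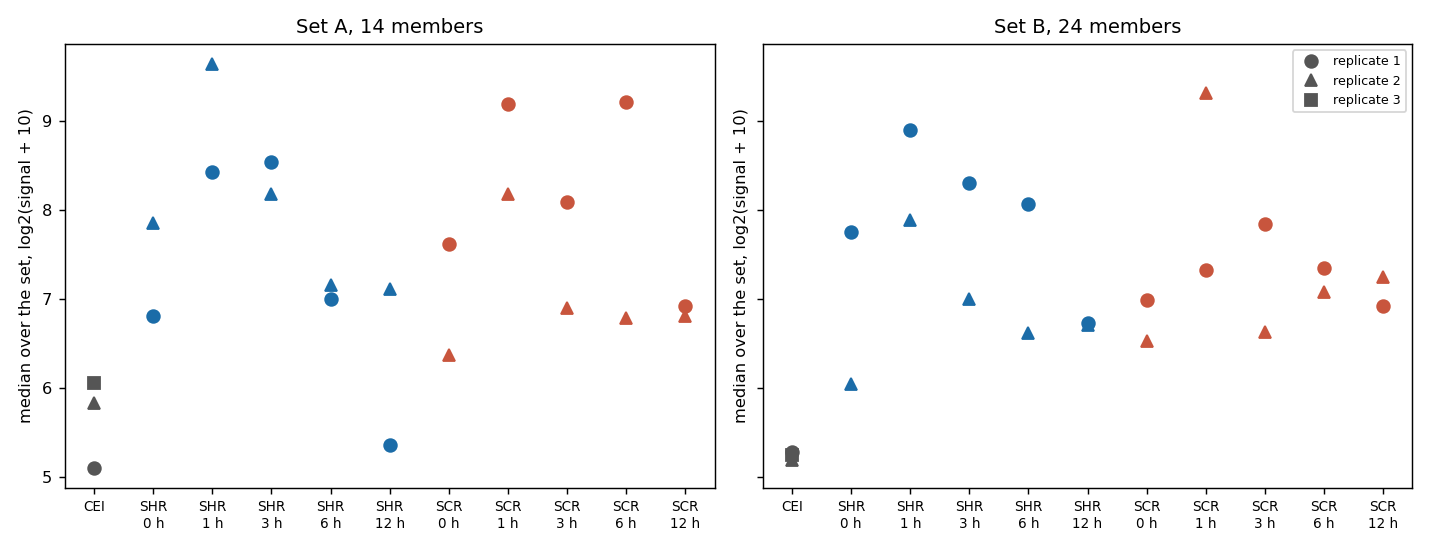
Median of log2(signal + 10) over the 14 transcripts of set A (left) and the 24 of set B (right) on each array, with CEI cells first, then the SHR line and the SCR line by time; symbols mark replicates. In set B the second SCR-line array at 1 h (9.30) stands above the first (7.33), and the SCR-line arrays at 6 h differ most in set A (9.21 and 6.79).

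Tests compared the 3 h, 6 h and CEI arrays, which took no part in the choice. Their standard errors came from the spread on all 23 arrays, those at 0 h, 1 h and 12 h included, and so were not independent of it. A limma fit over all 23 arrays compared 15985 probe sets, with Benjamini-Hochberg adjustment over all of them and a threshold of 0.05 (two-sided). All 38 transcripts were tested, and each passed the filter on low values on the 3 h and 6 h arrays of both lines. On the SHR-line arrays at these times 35 of the 38 passed it, against 38 on those of the SCR line. The others were tested through their signal on other arrays, and their SHR-line differences rest mostly on low signals. From 3 h to 6 h none of the 38 was called in the SHR line, nor in the SCR line, where 0% of all probe sets were called in either direction. At an unadjusted p under 0.05, none of the 38 passed in either line, against 0.826% of all probe sets higher and 0.701% lower in the SHR line and 0.657% higher and 0.826% lower in the SCR line. The 6 h minus 3 h difference was below 0 for 32 of the 38 in the SHR line (median -0.50, from -2.01 to 0.67) and above 0 for 24 in the SCR line (median 0.22, from -1.11 to 0.90). The median over all probe sets was 0.01 in the SHR line, against -0.02 in the SCR line. Of the 9933 with a mean 1 h signal of at least 100, 4943 were below 0 in the SHR line and 4623 above 0 in the SCR line. Among the 122 early transcripts still high at 12 h, 97 were below 0 in the SHR line (median -0.37). In the SCR line 52 of these 122 were above 0 (median -0.07). A median below 0 in the SHR line was thus not particular to the 38, and for both sets it came from the same arrays. Both medians of the 38 turned round when single arrays were left out: the SHR-line median was 0.27 without the first 3 h array and 0.01 without the second 6 h array, and the SCR-line median was -0.34 without the first 6 h array and -0.35 without the second 3 h array. The direction of this step is thus not settled in either line, and its standard error had a median of 0.66 over the 38 in both lines.

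The difference between the lines in this step, SHR minus SCR, was called for 0 of the 38 and 0% of all probe sets by limma, and 0 of the 38 had an unadjusted p under 0.05, against 0.976% of all probe sets higher and 0.851% lower. Its median was -0.77 over the 38 and 0.03 over all probe sets. With 1 array left out the median of the 38 ran from -1.35, without the first SCR-line array at 3 h, to -0.04, without the first SHR-line array at 3 h. The smallest adjusted p among the 38 was 0.986. The opposite medians of the lines for the step from 3 h to 6 h are thus not shown to differ. The median standard error of this difference was 0.93 over the 38, against 0.54 over all probe sets.

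The levels of the 38 over 3 h and 6 h were also compared between the lines. None was called, while 1.82% of all probe sets were called higher in the SHR line and 2.6% lower by limma. The median difference, SHR minus SCR, was -0.04 over the 38, -0.37 to 0.34 with 1 array left out, and 0.10 over all probe sets, and 2 of the 38 were higher and 2 lower at an unadjusted p under 0.05, against 13.4% and 9.35% of all probe sets. AT4G28460, the peptide precursor, differed by 1.11 ± 0.51 (log2, SE, n = 4 arrays in each line, limma adjusted p = 0.205), and AT4G20000 by 0.70 ± 0.36 (adjusted p = 0.254). Without the second SCR-line array at 6 h, 4 of the 38 were called, 2 in each direction, and without the first SHR-line array at 3 h 1 was.

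Most of the 38 were lower in CEI cells, the stem cells of the ground tissue. Against the mean of 3 h and 6 h in both lines, 26 of the 38 (68.4%) were lower in CEI cells by limma and none was higher, 11 of the 16 with 1 gene among them. Of all probe sets tested, 15.8% were lower and 18.3% higher, and of the 9933 with a mean 1 h signal of at least 100, 21.1% were lower. At an unadjusted p under 0.05, 27 of the 38 were lower and 1 higher, against 20.2% of all probe sets lower and 25.2% higher. The 122 early transcripts that were still high at 12 h were lower in CEI cells in 93 cases (76.2%), with a median of -1.75, against -1.82 for the 38, so lower CEI levels were seen in the lasting early transcripts too. On the CEI arrays alone 15 of the 38 would have passed the filter on low values, so the others were tested through their signal in the time course. A filter passed only where the signal is high favours lower calls in CEI cells, so the count of 26 is not read as support. Of the 26, 13 were below the 40th percentile of the array on all 3 CEI arrays (35.2, 43.6 and 31.0). For these 13 the fitted difference rests on signals too low to be read as levels, and a bound is given instead, with the CEI level set to that percentile; it ran from at least 1.05-fold to at least 10.8-fold lower in CEI cells. With every transcript below the percentile on all 3 CEI arrays at its bound, the median over the 38 was -1.36 (log2). The count of lower transcripts was 20 to 28 under the alternatives run, and 1 transcript was higher with the replicate block, without the first SCR-line array at 6 h and against the SCR line alone.

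AT5G18470, the lectin, had signals of 22.6, 32.4 and 28.9 in CEI cells, against 254 to 806 on the time-course arrays at 3 h and 6 h. The groups did not overlap, and it was at least 10.8-fold lower in CEI cells (n = 3 CEI and 8 time-course arrays). This bound and those of the following genes were not tested. The limma adjusted p of the fitted difference of AT5G18470 was 7.68e-06. AT4G16260, the glucanase family member, had 17.5, 15.9 and 20.4 in CEI cells, against 135 to 709 in the time course. It was at least 6.76-fold lower, and its fitted difference had a limma adjusted p of 4.97e-05. AT2G44370 had 12.9, 10.2 and 18.1 in CEI cells, against 85.5 to 485 in the time course. It was at least 5.42-fold lower, with a limma adjusted p of 1.31e-05 for its fitted difference. The 3 CEI arrays lay below all 8 time-course arrays for each of these genes.

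AT4G38550 differed by -3.19 ± 0.41 (log2, SE, limma adjusted p = 3.51e-05), with 1 of its CEI arrays below the percentile. The protease gene AT5G48430, with 11.7, 36.7 and 44.5 in CEI cells against 78.0 to 700.4 in the time course, differed by -2.79 ± 0.53 (limma adjusted p = 0.000942), with 2 CEI arrays below it. The receptor kinase gene AT1G51850 was lower as well (-2.27). The glycine-rich AT5G28630, AT4G20000 and AT1G49030 were below the percentile on all CEI arrays and at least 4.27-fold, 1.48-fold and 1.20-fold lower. AT4G28460, the peptide precursor, differed by -1.48 ± 0.49 (limma adjusted p = 0.0272), with 2 CEI arrays below the percentile. This call was lost without the second CEI array (limma adjusted p = 0.0604), the third CEI array (adjusted p = 0.16) or the first SHR-line array at 6 h (adjusted p = 0.0506). It was also lost against the SCR line alone (adjusted p = 0.194). ZCF37 differed by -1.11 ± 0.33 (limma adjusted p = 0.0163), a call lost without the first CEI array (adjusted p = 0.0654) or the second (adjusted p = 0.0784), and against the SCR line alone (adjusted p = 0.0539).

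The wall proteins with the largest 1 h differences did not pass. AT2G41810 had 14.2, 24.0 and 68.3 in CEI cells against 12.5 to 769 in the time course, a difference of -1.76 ± 0.99 (limma adjusted p = 0.176), and AT2G43890 had 35.7, 89.9 and 109 against 4.33 to 548, a difference of -0.20 ± 0.87 (limma adjusted p = 0.881). APS3 had 748, 950.2 and 605 in CEI cells against 358 to 859 in the time course, a difference of 0.32 ± 0.37, and AT3G23190 differed by 0.37 ± 0.65 and AT1G64610 by -0.35 ± 0.41. For these genes the groups overlapped. The CEI samples also differ from the time course in line, medium and transfer, and in the source of the RNA if the sorting was not alike. Cell type cannot be told apart from these. EXP7 and EXP18 summed to 426, 432 and 149 in the CEI cells against 39.4 to 274 in the time course at 3 h and 6 h, and the part of such cells in the result was not tested.

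**Figure D5:**
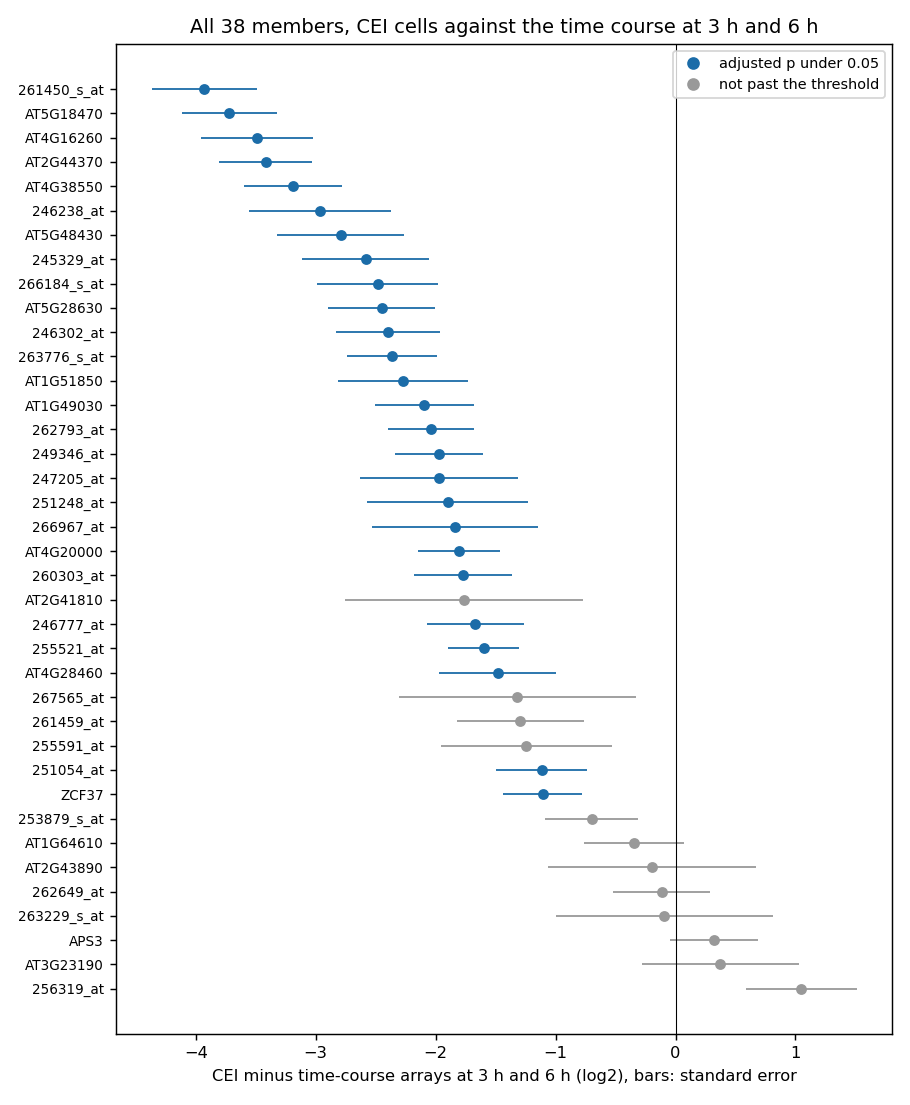
Difference between CEI cells (3 arrays) and the time course at 3 h and 6 h (8 arrays) for each of the 38 transcripts on the log2(signal + 10) scale, with standard errors from limma; blue marks an adjusted p under 0.05. The 26 called transcripts all lie below 0, and 3 transcripts lie above 0 without a call; for the 13 below the 40th percentile on all CEI arrays the plotted fitted value is no level difference.

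None of the 23 list loci that the annotation named was among the 38, of which 16 could be matched by gene. Of 139 loci on 14 lists (WRKY, ERF and zinc finger factors, touch and calcium, jasmonate, early immune, auxin, cytokinin, abscisic acid, heat shock, clock, nitrate and sugar, ribosome biogenesis and gibberellin), these 23 were named and 22 were tested. No locus of the ERF, jasmonate, heat shock, nitrate and sugar, or ribosome biogenesis lists was named, so these lists could give no member. The 38 were few among 22810 probe sets, so nothing is read from the absence of the 23. Among the 23, WRKY53 was the only one at least 1 higher at 1 h in both lines, with 1.00 in the SHR line, against 1.62 in the SCR line. Of the 22810 probe sets on the array 185 were, without those left out by the conditions. Some list genes lay just under this cut, with 0.96 (SHR line) and 0.99 (SCR line) for STZ, 1.72 and 0.98 for WRKY22, and 1.85 and 0.996 for GID1B. Others fell in at least 1 line, such as GH3.1 (0.15 and -0.34) and ARR15 (-0.16 and -1.05). The count at this cut is thus no measure of which list genes rose. Against the time course at 3 h and 6 h, 13 of the 22 were lower in CEI cells by limma and none was higher, where 15.8% of all probe sets were lower. Among them were the zinc finger gene STZ, a repressor of stress responses (-2.99), the ubiquitin ligase gene PUB23, which dampens immune signalling (-2.49), and WRKY53 (-2.28). Between the lines over 3 h and 6 h, 2 of the 22 were lower in the SHR line, the auxin-conjugating GH3.3 (-1.95) and LBD16 of lateral root initiation (-1.54), and none was higher, where 2.6% of all probe sets were lower and 1.82% higher. The count of all probe sets called between the lines, 707, moved between 23 and 3525 with the alternatives run.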

How the data were processed

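The deposited values are linear array intensities, made with MAS5 per the submitters' processing notes, which state no version. The mean between the 2nd and 98th percentile was 249.89 to 249.91 on all 23 arrays, so scaling per array was taken as done. The number of arrays limits the precision. Each value was analysed as log2(signal + 10) without normalization between arrays, a pseudocount that understates fold changes of low signals.

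Members were found by the stated conditions. limma 3.58.1 (R 4.3.3; lmFit, eBayes with trend) fitted 11 group means to all 23 arrays for probe sets above the 40th percentile of their own array on at least 2 arrays (64 controls left out). Arrays of a line count as independent. The fit was tested on simulated data. Members, gene lists and comparisons were chosen with earlier results of these data known. Named were members with 1 gene (up to 20 by the smaller 1 h difference, and the most strongly called), the first 5 members by rank, those next to a threshold, and genes of the lists. Alternatives were other pseudocounts, filters, quantile normalization, no trend, fewer arrays and a replicate block. The bounds in CEI cells were added after seeing the data. Promoter motifs were not analysed here.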

Additional observations from a re-analysis of the deposited data

Results flagged for a closer look

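The 12 h mean was below 0 h in the SHR line and above it in the SCR line for 18 of the 38 transcripts. Taken singly, 27 were below 0 h in the SHR line and 27 above it in the SCR line. Over all probe sets the median 12 h difference was 0.01 in the SHR line, against -0.07 in the SCR line. The share of all probe sets with opposite directions was not counted, so nothing is read from the 18. For AT2G44370 and ZCF37 the opposite directions held on every array. The share of all probe sets with such a split was not counted either, so these genes are given as a description only. The difference between the lines was not tested, and the choice of transcripts used the 12 h level. For AT2G44370, every SHR-line array at 12 h (74.6 and 206) lay below both 0 h arrays (220.0 and 227), with a difference of -0.79 (log2), and every SCR-line array at 12 h (224 and 269) lay above both 0 h arrays (199.7 and 127), with a difference of 0.60. The SHR minus SCR difference of these changes was -1.38. For ZCF37, the SHR-line arrays at 12 h (554 and 423) lay below the 0 h arrays (956 and 1092), with a difference of -1.06, and the SCR-line arrays at 12 h (512 and 666) above them (465 and 352), with a difference of 0.52. The SHR minus SCR difference was -1.58. Groups of 2 or 3 arrays are too small to look for a single array far from the rest.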

How the results depend on the processing

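The number of probe sets that met the conditions was 38, and 28 to 45 under other pseudocounts, quantile normalization or a signal minimum of 50 or 200. It was 1 when every 1 h array had to be at least 1 above every 0 h array, and 27 to 51 when 1 array was left out, with 16 to 38 of the 38 kept. The count of 26 in CEI cells was 20 to 29 (20 to 28 lower, 1 at most higher) under all 21 alternatives, 3 of which, chosen after seeing the data, took 3 h or 1 line alone, and 20 to 26 with 1 array left out. Of 231 values of the 11 named genes lower in CEI cells, 224 stayed past the threshold in the same direction, 7 did not (4 of AT4G28460 and 3 of ZCF37) and 0 reversed. Between the lines the count of 0 became 2 with the replicate block and 0 to 4 with 1 array left out, and that of all probe sets, 707, became 1734 with the block, 23 with 3 h alone, 78 with the arrays of the contrast alone and 158 to 3525 with 1 array left out. For 6 h minus 3 h, the replicate block included, no alternative run called any of the 38; without the second SCR-line array at 6 h, 912 probe sets were called in the SCR line and 762 for the difference between lines, against 0. Whether replicate numbers pair the arrays is not settled, and they were treated as independent: same-numbered differences correlated at 0.03 to 0.38 (SHR line, 8 of 10 over 0.1) and -0.16 to 0.46 (SCR line, 7 of 10), and the block called 29 in CEI cells. The cause of these shifts was not tested.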
